A study of Mus musculus with 8 samples.

Results

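Egr3, Nr4a3 and Vgf are genes that neurons switch on when they are active, and they were followed here through brain development. The genes were chosen by name after their signals over the 4 contexts of this study were known, so the differences between contexts are given as a description without a test. Of the 9607 genes with a named probe set on the array, these are 3, with 1 probe set each. All 3 probe sets passed the filter on dim signals, which kept a probe set if 2 or more of the 8 arrays read above their own median. Egr3 passed only through the 2 arrays of neonatal cortex, where it was high, while Nr4a3 and Vgf each exceeded the median on 5 arrays.

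The mice were T9H/+ heterozygotes, carriers of a translocation between chromosomes 7 and 15, and every sample of the study had this genotype. In the group called maternal-7 here, matdup proximal Chr 7 was combined with patdup proximal Chr 15, so both copies of the proximal part of chromosome 7 came from the mother and both of chromosome 15 from the father. The group called paternal-7 was the reciprocal, patdup proximal Chr 7 with matdup proximal Chr 15. Each duplication was sampled in neonatal cortex (described in the labels as forebrain), neonatal cerebellum, and brain of embryos at 15.5 and 13.5 days post coitum (dpc), with 1 Affymetrix 430B array for each of these 8 samples. There was no wild-type sample and no replicate within a context, and the labels do not say how many animals gave each RNA. P-values therefore measure only the spread between these arrays. In the fits, that spread is how far the difference between the duplications varied from context to context. Egr3 lies on chromosome 14, Nr4a3 on chromosome 4 and Vgf on chromosome 5, outside both duplicated chromosomes.

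When a neuron fires, calcium enters through NMDA receptors and voltage-gated channels and activates kinases, which phosphorylate transcription factors such as CREB and SRF that are already bound to DNA. Genes switched on in this way without new protein synthesis are called immediate early genes, and many of them encode transcription factors that act on a later set of genes. Egr3 is a zinc finger factor of the Egr family and Nr4a3 an orphan nuclear receptor of the Nr4a family. Vgf encodes a secreted precursor, stored in dense-core vesicles and cut into neuropeptides, whose expression is raised by BDNF as well as by activity.

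Signals are given in MAS5 units on a linear scale, and the trimmed mean was 499.9 on every array. The array median lay between 229.8 and 286 units, and a signal below it was treated as not distinguishable from background. The arrays matched the labelled tissues where markers were measured. The 6 measured markers of cortex all had positive differences from cerebellum, and 3 of them (Neurod2, Bcl11b and Slc17a7) were called higher in cortex by limma at an adjusted p under 0.05, where 0.325% of all probe sets were called in either direction. Of the 3 tested cerebellum markers, Tfap2b was called higher in cerebellum and Zic1 was about as high in cortex (log2 difference, cortex minus cerebellum, 0.05 ± 0.23, SE). Since these are bulk samples, fewer cells of a type and less RNA per cell cannot be told apart.

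Egr3 was high in neonatal cortex and in none of the other samples. In cortex it read 358 units in the maternal-7 and 899.9 in the paternal-7 array, a mean of 629 ± 383 (SD, n = 2 arrays). In cerebellum the corresponding signals were 53.5 and 66.6, at 15.5 dpc 71.5 and 138.7, and at 13.5 dpc 67.4 and 84.7. Both cortex arrays lay above all 6 others, each of which was below its array median, so that the order among the 3 lower contexts carries no information. The log2 difference between cortex and cerebellum was 2.42 ± 0.29 (SE), a difference of at least 2.44-fold when the cerebellum is set at the array median. Against the embryonic brain the cortex stood at least 2.12-fold higher at 15.5 dpc and at least 2.08-fold higher at 13.5 dpc. The mean difference between neonatal and embryonic contexts, 0.90 ± 0.20, rests on the cortex arrays, and without that pair it was -0.31.

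**Figure D1:**
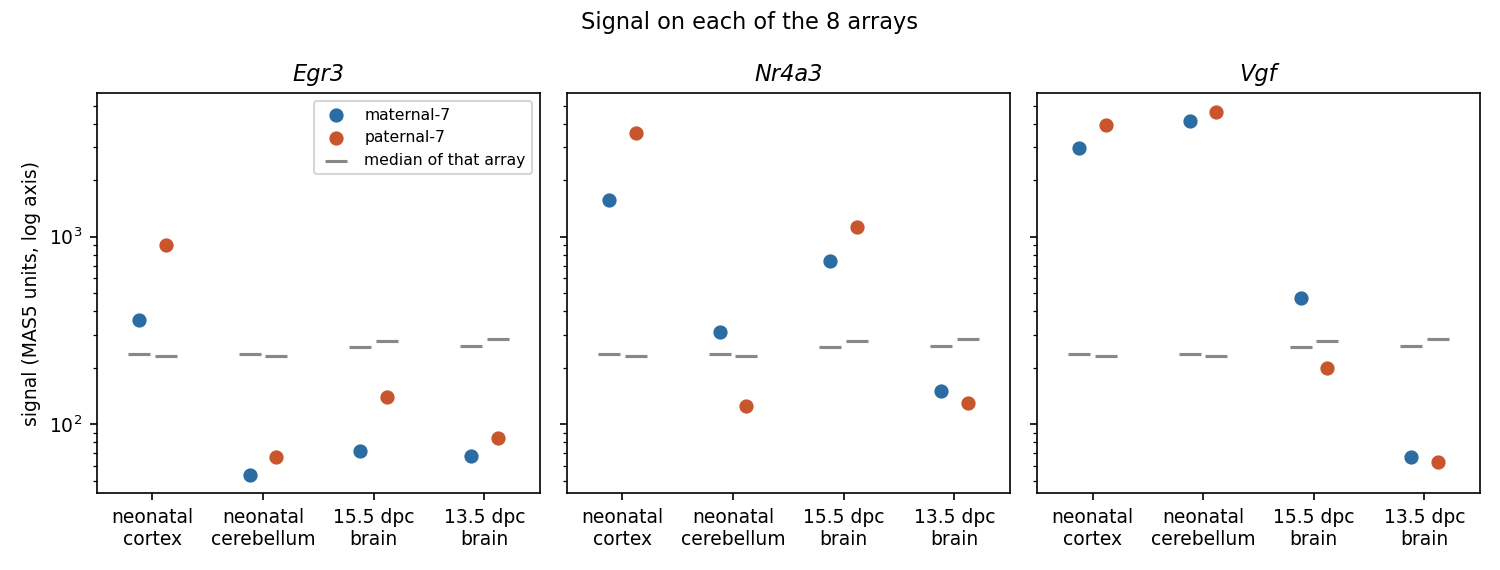
Signal of Egr3, Nr4a3 and Vgf (MAS5 units, log axis) on each of the 8 arrays, by context on the horizontal axis. Each point is 1 array, coloured by duplication, and each grey dash is the median of that array. Egr3 exceeds the median in neonatal cortex alone, Nr4a3 is high in cortex and at 15.5 dpc, and Vgf is high in both neonatal regions.

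Nr4a3 shared the high cortex level, and was also well above background in the brain at 15.5 dpc. Its signals were 1566 (maternal-7) and 3590.1 (paternal-7) in cortex, and 744 and 1122 at 15.5 dpc. In cerebellum they were 309 and 125, and at 13.5 dpc 150 (149.7) and 129.6. The cortex arrays lay above all others and the 15.5 dpc arrays above those of the remaining contexts, while cerebellum and 13.5 dpc overlapped. Only the maternal-7 array of cerebellum was above its median among those 4. The mean in cortex was 2578 ± 1431 (SD, n = 2), and the next level, 933 ± 267 at 15.5 dpc, was lower by more than either SD. Cerebellum (217 ± 130.1) and 13.5 dpc (139.7 ± 14.2) differed by less than the SD of the cerebellum.

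On the log2 scale Nr4a3 differed by 3.23 ± 0.47 (SE) between cortex and cerebellum, and by 2.30 ± 0.47 between 15.5 and 13.5 dpc. The latter is at least 3.34-fold, since both 13.5 dpc arrays were below the median. The difference of cortex from 15.5 dpc was 1.32 ± 0.47. Within maternal-7 arrays, where the cerebellum was above the median, the cortex signal was 5.07 times that of cerebellum. So Nr4a3 differed from Egr3 in being present before birth, at the older of the embryonic ages sampled, where the Egr3 probe set was below the median.

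The sequence upstream of Nr4a3 is shown because the cAMP response element, the site of CREB, can be searched in it. RefSeq's promoter table (GRCm38.p6) matched 1 of the 3 genes, and the stretch printed is chr4:48045055-48045174 on the plus strand, the first 120 bases of a window that runs from 250 bases before the listed start to 50 after it. Capitals mark TGACG, the core of the cAMP response element, or its complement CGTCA.

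Nr4a3: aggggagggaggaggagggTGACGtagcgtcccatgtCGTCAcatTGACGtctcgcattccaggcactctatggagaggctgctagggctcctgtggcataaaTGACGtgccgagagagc

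The core occurred 4 times on both strands together, beginning 231, 213, 205 and 147 bases before the start. At least 1 copy was found in 20.8% of the 32851 windows of the table and at least 4 copies in 0.231%. The full palindrome TGACGTCA, which would contain the core, was not among the letters of this window (1.79% of windows hold it), and neither were the Egr site GCGTGGGCG (0.612%), the Nr4a monomer site AAAGGTCA (1.51%) or the CArG box of SRF (1.63%). Matches of letters are a description and do not show binding.

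Vgf was high in both neonatal regions and low in the embryonic brain. It read 2979 (maternal-7) and 3947 (paternal-7) units in cortex and 4127 and 4644 in cerebellum. At 15.5 dpc the signals were 470.5 and 198.6, and at 13.5 dpc 66.9 and 62.6. All 4 neonatal arrays lay above all 4 embryonic ones. At 15.5 dpc only the maternal-7 array was above its median, and at 13.5 dpc neither was. The means were 4386 ± 366 in cerebellum and 3463 ± 685 in cortex (SD, n = 2), a difference of 922 units that exceeded both SDs, and the arrays of the regions did not overlap. On the log2 scale the difference, cortex minus cerebellum, was -0.35 ± 0.34 (SE).

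The difference of Vgf between neonatal and embryonic contexts was 4.21 ± 0.24 on the log2 scale. Cortex was at least 12.5-fold and cerebellum at least 16.02-fold above the 13.5 dpc brain, where Vgf was at background. The step between the embryonic ages was 1.58 ± 0.34, or at least 1.12-fold. In raw signal, cortex exceeded 15.5 dpc 6.33-fold in maternal-7 arrays, the pair with both signals above the median. Stage and region are joined in this design, since both neonatal samples are dissected regions and both embryonic samples are not. Markers of maturing neurons moved with Vgf, and their part in its difference was not tested. All 5 tested ones (Syt1, Rbfox3, Syn2, Camk2a and Nefl) were called higher in neonatal contexts by their brightest probe sets. Over all probe sets 14.3% were called higher and 16.4% lower. Other tested probe sets of Rbfox3 (0.68 ± 0.17, SE) and Camk2a (1.04 ± 0.31) were also called. Others of Syn2 (0.49 ± 0.16) and Camk2a (0.35 ± 0.30 and -0.40 ± 0.32) were not. The summed signal of the 6 measured markers of maturing neurons was 39049 to 49669 units on neonatal arrays, 25092 to 25744 at 15.5 dpc and 11950 (11949.7) to 14452 at 13.5 dpc. The 4 measured astrocyte markers summed to between 10893 and 12640.1 units on neonatal and between 4181 and 7245 on embryonic arrays.

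Between the duplications no member passed the test. Of the 3 genes 0 were called (limma, Benjamini-Hochberg adjusted p), where 0.00756% of all tested probe sets were, and 1 of 3 had an unadjusted p under 0.05, where 8.68% of all probe sets did. That gene was Egr3, which was higher in the paternal-7 array in 4 of 4 contexts, with a log2 difference of 0.54 ± 0.20 (SE, adjusted p = 0.562, limma). In 3 of the 4 contexts both of its arrays were below the median, so this is a count of signs and not of detection. Nr4a3 differed by 0.14 ± 0.33 (adjusted p = 0.908, limma) and was higher in 2 of 4 contexts, and Vgf differed by -0.13 ± 0.24 (adjusted p = 0.882, limma), also higher in 2 of 4. The sign of Nr4a3 turned without the cortex pair (-0.20) and that of Vgf without the 15.5 dpc pair (0.17).

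Within single contexts the members were not uniform. In cortex, Egr3 was 2.52 times and Nr4a3 2.29 times as high in the paternal-7 as in the maternal-7 array, log2 differences of 1.20 and 1.17. In that pair 1.58% and 1.73% of all tested probe sets had a larger absolute difference, and the SD over probe sets was 0.399. Vgf was 1.33 times as high (0.40). At 15.5 dpc Egr3 and Nr4a3 were again higher in the paternal-7 array, by 0.60 and 0.56, with an SD over probe sets of 0.576 and with Egr3 below the median on both arrays, while Vgf was lower by 2.37-fold (a log2 difference of -1.04). In cerebellum Nr4a3 was lower in the paternal-7 array (a log2 difference of -1.002, with 2.84% of probe sets larger), and Egr3 and Vgf stood at 0.16 and 0.17. At 13.5 dpc all 3 genes lay below the median on both arrays and differed by -0.15 to 0.18. Each of these is a comparison of 1 array with another and has no replicate check. The members were chosen with their signals known, and Egr3 passed the filter through the cortex arrays alone. The shares of probe sets with larger differences are therefore a description.

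**Figure D2:**
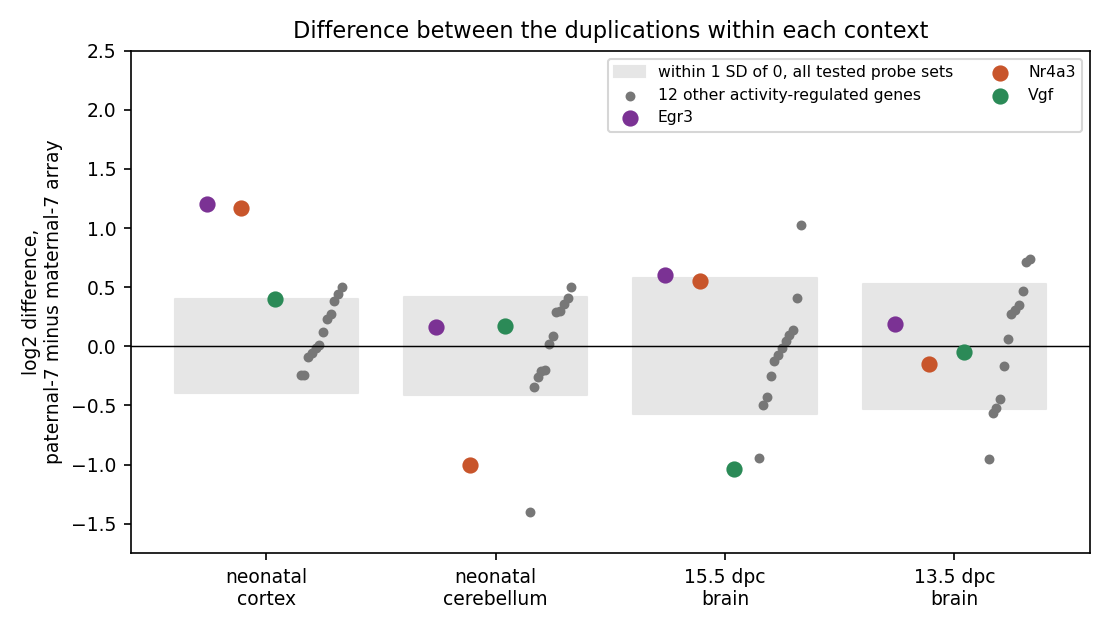
Log2 difference between the paternal-7 and the maternal-7 array of each context (vertical axis) for Egr3, Nr4a3 and Vgf and, as small grey points, 12 other activity-regulated genes. Grey bands span 1 SD of all tested probe sets on either side of 0. Egr3 and Nr4a3 stand at 1.20 and 1.17 in cortex, above the highest of the 12 others there at 0.50. The members were chosen with their signals known, so this is a description.

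The duplication difference was also compared between stages. It did not pass the test for any of the 3 genes (0 called, against 0.0% of all probe sets, and 0 of 3 at an unadjusted p under 0.05, against 9.14%). Vgf was higher in the paternal-7 array in both neonatal and lower in both embryonic contexts, and the difference between stages was 0.83 ± 0.39 (SE, limma adjusted p = 0.566). It was 0.33 without the 15.5 dpc pair and 1.32 without the 13.5 dpc pair, and the arrays of the latter pair were both below the median. For Egr3 it was 0.29 ± 0.41 (adjusted p = 0.831, limma) and for Nr4a3 -0.12 ± 0.73 (adjusted p = 0.962, limma). Without the cortex pair the value of Egr3 was -0.23, and that of Nr4a3 was 0.96 without the cerebellum pair and 0.23 without the 15.5 dpc pair.

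Other neuronal genes, picked after their values were seen, also read higher in the paternal-7 cortex. Ntrk2, the receptor of BDNF, which was as bright in cerebellum as in cortex, read 3507 units in the maternal-7 and 7209 in the paternal-7 cortex with its brightest probe set. Its 4 other tested probe sets read 4389 and 6034.5, 2089 and 3361, 1705 and 1995, and 312 and 366. Camk2a, a calcium-activated kinase of excitatory neurons, read 1829.6 and 3068 with its brightest probe set. Its 3 others read 878 and 1795, 547 and 1251, and 483 and 451. The 6 measured cortex markers went both ways. The vesicular glutamate transporter gene Slc17a7 read 1127 and 2215 (a log2 difference of 0.94) and Emx1 697 and 857 (0.28), while Neurod2 stood at -0.10, Bcl11b at -0.05, Cux2 at -0.28 and Emx2 at -0.39. Their sum was 19557 in the maternal-7 and 19573 in the paternal-7 cortex. The 4 measured cerebellum markers summed to 7201 and 4438, and most of this was Zic1, a factor of the cerebellum and of dorsal midline tissue, with 6283 and 3646. Zic1 was lower in the paternal-7 array in all 4 contexts. Tfap2b, the cerebellum marker called higher in cerebellum, read 339 in the maternal-7 and 363 in the paternal-7 cortex. The 6 measured markers of maturing neurons summed to 39049 and 44420.1 in these arrays. The part of these markers in the cortex difference of Egr3 and Nr4a3 was not tested.

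Few relatives of the members could be read. Of their families, the genes Egr1, Egr2, Egr4 and Nr4a1 had 0 probe sets named here, and Nr4a2, a nuclear receptor also required in dopamine neurons, had 4, of which 2 were tested. The brighter one did not follow Nr4a3. Its signals ran from 994 to 2045 units, and it differed by 0.28 ± 0.26 (SE) between cortex and cerebellum (adjusted p = 0.916, limma) and by 0.30 ± 0.19 between neonatal and embryonic contexts (adjusted p = 0.243, limma). The other was called higher in neonatal contexts at 1.69 ± 0.25 (adjusted p = 0.00426, limma), with 1114 to 1697 units on neonatal and 207 to 774 on embryonic arrays. Npas4, an immediate early factor specific to neurons, had 1 probe set, which read 11.03 to 50.8 units and was below the median on all 8 arrays.

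Lists of further activity-regulated genes held 69 genes, of which 20 had a probe set here and 12 were tested by their brightest probe set. Between the duplications 0 of the 12 were called, against 0.00756% of all probe sets. At an unadjusted p under 0.05 (limma) there was 1, Dusp4, against 8.68%. Of the 12, 6 lay above 0, where 51.9% of all probe sets did, and the median log2 difference was 0.01, beside 0.01 over all tested probe sets. The extremes were Dusp4, a MAP kinase phosphatase, at -0.42 ± 0.17 (SE, adjusted p = 0.574, limma) and Csrnp1, a nuclear factor, at 0.38 ± 0.20 (adjusted p = 0.605, limma). In the cortex pair the 12 genes ran from -0.25 to 0.50, and none reached the difference of Egr3 or Nr4a3. Those members were chosen with their signals known, and Egr3 passed the filter through the cortex arrays alone, so the comparison is a description. Fosl2, a partner of Jun in the AP-1 factor, was the highest in that pair, with 1029 and 1479 units. In cerebellum it read 416 in the maternal-7 and 121 in the paternal-7 array, the direction of the difference of Nr4a3 there.

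Between cortex and cerebellum 0 of the 12 genes were called, against 0.325% of all probe sets, and 5 had an unadjusted p under 0.05, against 7.65%. Fosl2 stood at 2.15 ± 0.42 (adjusted p = 0.166, limma), with 1029 and 1479 units in cortex, 380 (379.9) and 393 at 15.5 dpc, and 959 and 651 at 13.5 dpc, whereas Nr4a3 was below the median at 13.5 dpc. Rasgrp1, an activator of Ras, stood at 1.32 ± 0.18 (adjusted p = 0.0557, limma) and Homer1, a scaffold of metabotropic glutamate receptors, at 0.84 ± 0.35 (adjusted p = 0.641, limma). Nrn1, a secreted neurite-promoting protein, and Crh, a neuropeptide, were at -1.06 ± 0.19 and -0.97 ± 0.19, toward cerebellum (adjusted p = 0.126 and 0.158, limma). Crh was below the median on both cortex arrays, at 181 and 144 units. It exceeded the median on 3 arrays, both of cerebellum among them. The median of the 12 was 0.06, beside -0.01 over all probe sets.

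Between neonatal and embryonic contexts 3 of the 12 were called, 2 higher and 1 lower, where 14.3% of all probe sets were called higher and 16.4% lower. At an unadjusted p under 0.05 there were 4, against 45.1%. Rasgrp1 rose by 1.27 ± 0.13 (SE, adjusted p = 0.00149, limma) and Homer1 by 0.84 ± 0.24 (adjusted p = 0.0419, limma), a call lost under 6 of 10 alternatives, quantile normalization and the smaller pseudocount among them. Of the other tested Homer1 probe sets, one was also called (0.50 ± 0.13) and one was not (-0.06 ± 0.19). Rgs2, a regulator of G protein signalling, was lower at -0.58 ± 0.16 (adjusted p = 0.0358, limma), and its other tested probe set was not called (-0.11 ± 0.17). The 4 tested transcription factors of these lists, Fosl2, Jund, Nr4a2 and Csrnp1, ran from -0.46 to 0.30 and were not called by their brightest probe sets. The other tested Nr4a2 probe set was called higher (1.69 ± 0.25). The secreted products Nrn1, Tac1 and Crh ran from -0.44 to 0.21. The median of the 12 was -0.02, beside -0.16 over all probe sets. Between 15.5 and 13.5 dpc 0 of the 12 were called by their brightest probe sets (5 at an unadjusted p under 0.05, against 23.0%), where 6.59% of all probe sets were. Another tested Homer1 probe set was called higher at 15.5 dpc (0.83 ± 0.18, adjusted p = 0.0447, limma). The brightest of Homer1 (1.19 ± 0.35) and the remaining one (0.31 ± 0.27) were not called.

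**Figure D3:**
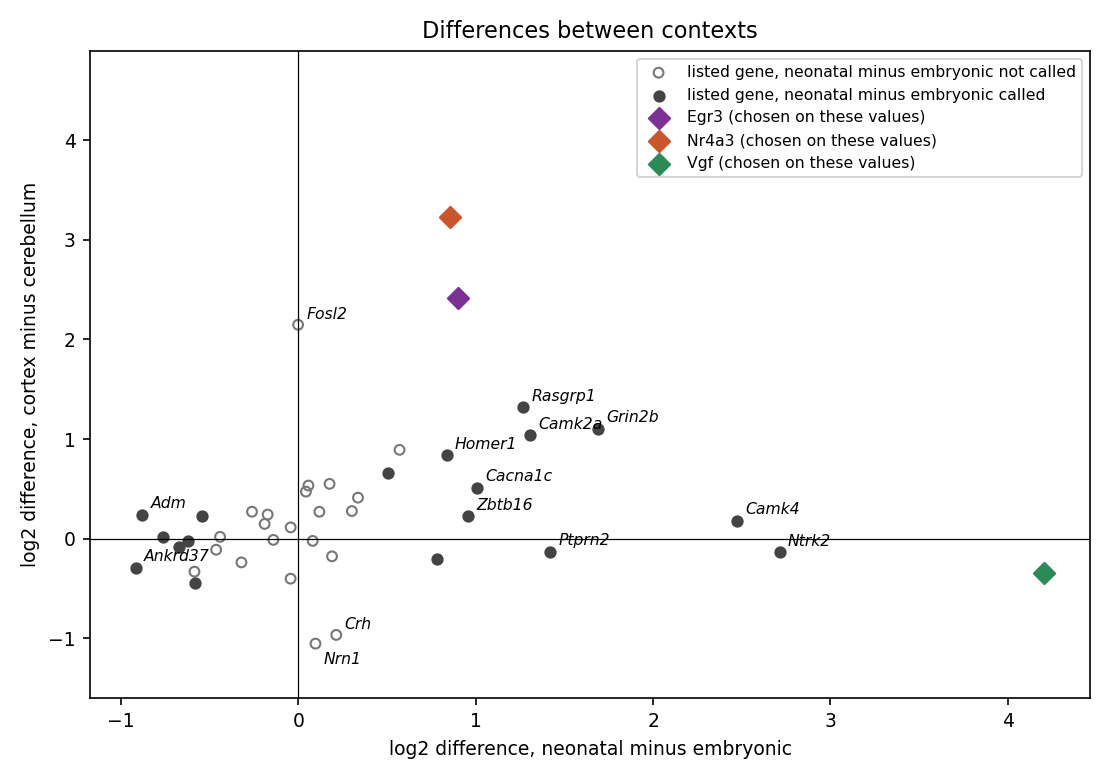
Log2 differences of 40 listed pathway genes between neonatal and embryonic contexts (horizontal axis) and between cortex and cerebellum (vertical axis), with filled points for genes called in the former. Diamonds are Egr3, Nr4a3 and Vgf, which were chosen on these values. Vgf lies at 4.21 on the horizontal axis, and Nr4a3 and Egr3 at 3.23 and 2.42 on the vertical axis.

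The machinery that makes and releases peptides such as those of Vgf was measured through 1 gene of 16. Ptprn2, a membrane protein of dense-core vesicles, rose by 1.42 ± 0.14 (SE, adjusted p = 0.00129, limma) between embryonic and neonatal contexts and by 0.88 ± 0.20 from 13.5 to 15.5 dpc (adjusted p = 0.0482, limma). The former call was kept under all 10 alternatives, and the latter was lost under 6 of 8, among them median centring and leaving out either neonatal pair. It read 4868 to 5813 units on neonatal arrays, 2523 and 3019 at 15.5 dpc and 1450.3 and 1497 at 13.5 dpc. Between cortex and cerebellum it was not called (-0.13 ± 0.20, adjusted p = 0.967, limma). Of the partners of Egr and Nr4a factors, Trim28, a corepressor, was the gene tested, and it was lower in neonatal contexts at -0.62 ± 0.12 (adjusted p = 0.0116, limma).

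Of the 17 tested genes upstream of activity-regulated transcription, 6 were called higher and 2 lower in neonatal contexts by their brightest probe sets, where 14.3% of all probe sets were called higher and 16.4% lower. Camk4, a nuclear kinase that phosphorylates CREB, rose by 2.47 ± 0.17 (SE, adjusted p = 0.000601, limma), and its other probe set by 2.43 ± 0.26. Ntrk2 rose by 2.71 ± 0.23 (adjusted p = 0.000938, limma), with 3507 to 7209 units on neonatal arrays and 166 to 2702 on embryonic ones. The NMDA receptor subunit gene Grin2b rose by 1.69 ± 0.19 and its other probe set by 1.62 ± 0.20. Camk2a rose by 1.31 ± 0.17, the calcium channel gene Cacna1c by 1.01 ± 0.15 and Mrtfb, a coactivator of SRF, by 0.50 ± 0.14. Creb1 itself was lower at -0.76 ± 0.15 (adjusted p = 0.0111, limma), with 2343 to 2852 units on neonatal and 3749 to 5006 on embryonic arrays, but its other tested probe set was not called (-0.26 ± 0.17). Mef2a, a further activity-dependent factor, was lower at -0.54 ± 0.13. Of the other tested Ntrk2 probe sets, one was not called (-0.44 ± 0.21), and of the other Camk2a probe sets 1 of 3 was called (1.04 ± 0.31). Crtc1 and Rps6ka5 were not called by their brightest probe sets (0.34 ± 0.14 and 0.18 ± 0.13). Another of Crtc1 was called lower (-0.75 ± 0.14) and another of Rps6ka5 higher (0.47 ± 0.14). The remaining tested ones of these genes (0.20 ± 0.14 and 0.50 ± 0.21) were not called.

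Between cortex and cerebellum 0 of these 17 upstream genes were called, against 0.325% of all probe sets. Of the 17, 15 lay above 0, where 48.1% of all probe sets did, with a median of 0.41 beside -0.01. Between 15.5 and 13.5 dpc, where Nr4a3 stood at 2.30 and Vgf at 1.58, Ntrk2 rose by 3.32 ± 0.33 (SE, adjusted p = 0.00923, limma). This brightest Ntrk2 probe set read 238 and 166 units at 13.5 dpc, below the median on both arrays. Of the 4 other tested Ntrk2 probe sets, 1 was called (1.52 ± 0.28). The rest ran from -0.13 to 0.88 and were not called. Camk2a rose by 1.13 ± 0.24 (adjusted p = 0.0454, limma). Its 3 other tested probe sets ran from -0.29 to 0.997 and were not called. Crtc3, a CREB coactivator, fell by 1.11 ± 0.21 (adjusted p = 0.0339, limma). Over all probe sets 3.52% were called higher and 3.07% lower at 15.5 dpc. Without either neonatal pair Ntrk2 was the 1 listed gene called there. Between the duplications 0 of all 40 tested pathway genes were called, against 0.00756% of all probe sets, and 2 had an unadjusted p under 0.05 (Camk2a and Dusp4), against 8.68%. The probe sets of Camk2a disagreed there, with the brightest at 0.60 ± 0.17 (SE). Its 3 others stood at 0.05 ± 0.30, -1.18 ± 0.32 and 0.16 ± 0.31. Over all 40, 18 were called between stages, where 30.7% of all probe sets were, and 11 of the 18 were higher in neonatal contexts. The count of 18 became 4 when the cortex arrays were left out and 9 when those of 13.5 dpc were. Camk4, Grin2b, Ntrk2 and Ptprn2 were called under all 10 alternatives, and each of the other 14 genes lost its call under at least 1, Adm and Mef2a under 6, Mrtfb under 5, and Rgs2, Dnaja1 and Hsp90aa1 under 4. With each array centred on its median the split was 11 of 14, and that over all probe sets moved from 1887 of 4055 called higher to 2398 of 3456, as the median difference went from -0.16 to 0.02.

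Genes of the stress response were read beside the members because handling of tissue can also raise immediate early genes. Of the hypoxia genes, Adm, a vasodilator peptide, and Ankrd37 were called lower in neonatal contexts, at -0.88 ± 0.22 and -0.92 ± 0.14, and Pdk1 was not called (0.19 ± 0.13). In that contrast 14.3% of all probe sets were called higher and 16.4% lower. In the cortex pair, where Egr3 and Nr4a3 differed, the 9 tested stress genes ran from -0.28 for Adm (494 units in the maternal-7 and 396 in the paternal-7 array) to 0.32 for Zbtb16 (1082 and 1362). Of the 9, 5 lay above 0, where 50.5% of all probe sets did. Of the heat shock genes, Dnaja1 rose by 0.78 ± 0.19 in neonatal contexts, Hsp90aa1 was lower at -0.67 ± 0.16, and Hspa5 was not called (-0.04 ± 0.15). Of the glucocorticoid response genes, Zbtb16 rose by 0.96 ± 0.20, while Tsc22d3 and Nfkbia were not called (-0.14 ± 0.14 and 0.08 ± 0.13). None of these 9 genes was called between cortex and cerebellum or between the duplications, where 0.325% and 0.00756% of all probe sets were. The part of handling in the signals of the members was not tested.

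The genes most like each member were taken by Pearson's correlation of log2 signals over the 8 arrays, given as a description, since the arrays share 4 contexts. Egr3 and Nr4a3 correlated at 0.855, Egr3 and Vgf at 0.391, and Nr4a3 and Vgf at 0.358. Nearest to Egr3 were Gatad2b (0.993), Mlip (0.989), Chrm1, a muscarinic acetylcholine receptor gene (0.960), Gda (0.946) and the histone deacetylase gene Hdac4 (0.929). Their amplitudes differed. Mlip read 498 and 1144 units in cortex and 218 to 354 elsewhere, while Hdac4 stayed between 967 and 1279 on all arrays, a span of 0.38 log2 units against 3.10 for Egr3. The other tested probe sets of Gatad2b and Hdac4 did not share the pattern, with correlations no higher than 0.57.

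Nearest to Nr4a3 were Drd1, the D1 dopamine receptor gene of striatal and cortical neurons (0.974), Zbtb20, a forebrain repressor (0.973), Tshz3 (0.958), the clone-named 2900052N01Rik (0.951) and Rps6ka5, a kinase of CREB and histone H3 that belongs to the upstream list (0.948). Drd1 read 942 and 1429 units in cortex, 428 and 482 at 15.5 dpc, 207 and 155 in cerebellum, and 76.6 and 60.2 at 13.5 dpc. The cerebellum and 13.5 dpc signals of Drd1 were below the array medians, and it was picked for its correlation over these same arrays. Its span of 3.65 log2 units was close to the 4.31 of Nr4a3, and Rps6ka5 spanned 0.90. Nearest to Vgf were Tcaf1 (0.998), Fam219a (0.995), Dnm3 and Synj1, which act in the retrieval of synaptic vesicles (0.994 and 0.992), and Ank2, an adaptor of the membrane skeleton (0.992). They spanned 1.73 to 2.52 log2 units against 5.28 for Vgf. One other tested probe set of Tcaf1 (-0.03) and one of Ank2 (0.17) did not share the pattern.

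**Figure D4:**
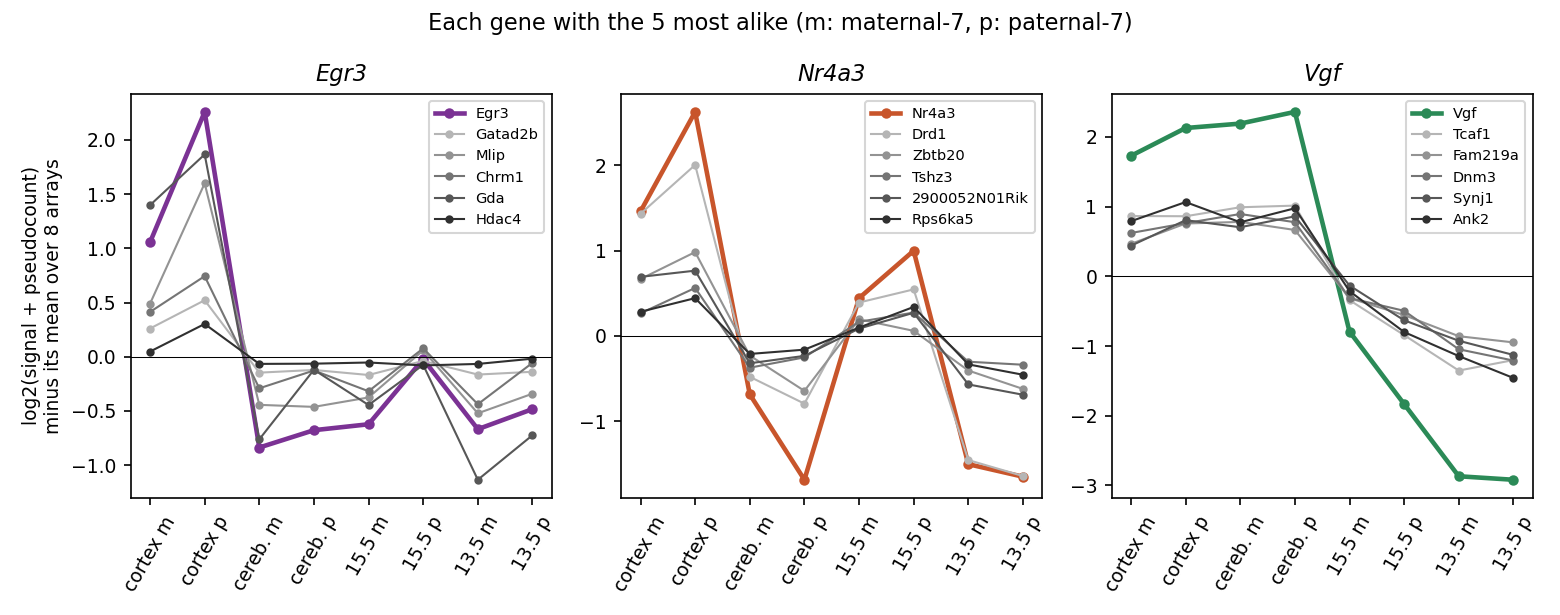
Log2 signal of each member (coloured) and of the 5 genes most correlated with it (grey), as log2(signal + pseudocount) minus its mean over the 8 arrays, with arrays on the horizontal axis. The lines of each panel share the contexts in which the member is high but not its amplitude, with a span of 0.38 log2 units for Hdac4 beside 3.10 for Egr3.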

How the data were processed

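The authors deposited linear intensity values for 8 arrays, made with MAS5 per the submitters' processing notes; its version and settings are not given in the sources used here. Precision is limited by the number of arrays. After 64 control probe sets were removed, 22511 remained, of which 14661 had 1 gene symbol in the platform annotation, 245 several and 7605 none. Values were analysed as log2(signal + 58.5), a pseudocount taken from the 20th percentile of each array (the median of those 8 values), which understates differences of dim probe sets. The filter kept 13221 probe sets (58.7%). The model in limma 3.58.1 (R 4.3.3) held the contexts and the duplication (3 residual degrees of freedom) or, for stages, separate duplication effects (2). It was tested on simulated data. Benjamini-Hochberg adjustment covered every tested probe set, with a threshold of 0.05. "At least" folds compare geometric means, with a dim signal raised to its array's median.

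The members and gene lists were chosen with earlier results of these data known. Named genes were the members and their families, up to 8 called genes a list or otherwise the 2 largest differences (brightest tested probe set), and the 5 genes most correlated with each member. Alternatives changed the scaling (quantile, median), the pseudocount (16, or none with a floor of 1), the filter (none, or 4 arrays) and the pairs included.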

Additional observations from a re-analysis of the deposited data

How the results depend on the processing

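No member was called between the duplications under any of the 29 alternative values, where adjusted p-values (limma) ran from 0.562 to 0.758 for Egr3, 0.608 to 0.999 for Nr4a3 and 0.792 to 0.910 for Vgf, nor between stages. Egr3 kept its direction, while Nr4a3 ran from -0.20 (without the cortex pair) to 0.53 and Vgf from -0.31 to 0.17 (without the 15.5 dpc pair) with a pair left out. For the duplication difference between stages, leaving out a pair gave -0.23 to 0.81 for Egr3 and -1.21 to 0.96 for Nr4a3, whose value with median centring was 0.001401, and 0.33 to 1.32 for Vgf. Of 60 alternative values of the context differences, 48 moved by less than the residual SD. A floor of 1 gave 3.25 and a pseudocount of 16 gave 2.95 for Egr3 between cortex and cerebellum, and for Vgf the floor gave 2.24 between embryonic ages and 4.78 between stages. The main pseudocount of 58.5 understates differences of dim probe sets. Egr3 read 53.5 and 66.6 units in cerebellum, and Vgf 66.9 and 62.6 at 13.5 dpc. With a pair left out the neonatal minus embryonic difference ran from -0.31 to 2.11 for Egr3, -0.76 to 2.47 for Nr4a3 and 3.42 to 4.996 for Vgf. Listed genes called between stages (18) numbered 4 without the cortex pair, 9 without the 13.5 dpc pair and 17 at most with a pair left out. Between 15.5 and 13.5 dpc (4) they numbered 3 with median centring, 1 with the floor, 2 with the pseudocount of 16, 1 without filter, and 1 without either neonatal pair, and Ntrk2 was among them each time. Between cortex and cerebellum the filter of 4 arrays called 1, Rasgrp1. Of the 5 genes named as most like each member, 3 remained for Egr3 and for Nr4a3 and 2 for Vgf with quantile normalization, and 0, 1 and 0 with Spearman's correlation. The arrays pair by context, which enters every fit as a term, and the labels give no replicate numbers.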
